A study of Rattus norvegicus with 57 samples.

Results

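The build-up of the low dose response in rat liver was measured as a difference of differences: the effect of 30 mg/kg methapyrilene on day 15 minus its effect on day 4, each taken against vehicle rats of the same day. The 4 groups were chosen by their sample titles and held 20 of the 57 arrays of the series, 5 rats in each of 30 mg/kg day 4, control day 4, 30 mg/kg day 15 and control day 15. Methapyrilene is an antihistamine that is toxic to the rat liver. Male Han Wistar [Crl:WI(Han)] rats, 8 to 10 weeks old, received it daily by mouth in carboxymethylcellulose, and control rats received carboxymethylcellulose alone. Of the 6 rats assigned to each group, 5 had an array in each of the 4 groups. RNA from whole liver was hybridised to Affymetrix rat expression arrays, 1 array per rat, and each value is a scaled MAS5 signal, which carries no detection call. Changes are log2 differences of that signal ± standard error from limma, fitted over 10725 genes and all 57 arrays, and a gene was called when its Benjamini-Hochberg adjusted p was under 0.05. Precision depends on how many arrays each group has and on how much the gene varied among arrays of the same group.

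Methapyrilene is oxidised in the liver to reactive products, and hepatocytes answer such products with several partly separate programmes. NRF2, freed from KEAP1 by electrophiles, switches on glutathione transferases, aldehyde and aldo-keto reductases and other detoxifying enzymes. The integrated stress response acts through phosphorylation of the translation factor eIF2, which favours translation of the transcription factor ATF4, whose targets make and import amino acids and include the liver hormone FGF21.

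The tissue label fitted its markers: the 8 hepatocyte markers were bright on all 20 arrays, from 469.8 at the lowest for Tat to 10933 at the highest for Apob. Arrays of the same group correlated at a median of 0.966 over log2 signals, from 0.958 to 0.978, against 0.962 over all 20 arrays. The actin 3'/5' ratio, a sign of RNA quality, spanned 5.02 to 6.37 in control rats on day 15 and 3.80 to 5.03 in control rats on day 4 (exact permutation p = 0.0159, 0.153 after adjustment over 48 array measures; the smallest p that 5 against 5 arrays allow is 0.00794). In the other groups it spanned 3.88 to 5.72 on day 4 and 4.29 to 5.52 on day 15 at 30 mg/kg, and its part in the results below was not tested beyond a fit with the ratio as a covariate.

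Few genes passed the test of the build-up itself. In the difference between the days 7 genes were called, 0.0653% of those tested, and all 7 were rises: Fgf21, Spsb4, Nupr1, Enc1, C11h21orf91, Rps4y2 and Plekha1. No fall was called by limma in this main fit, though some were under other settings, given below. At an unadjusted p under 0.05 there were 437 rises (4.07%) and 416 falls (3.88%), and over all genes the median difference was -0.0039. Each day on its own gave more calls: 493 genes (4.6%) on day 15, with 291 rises and 202 falls, and 84 genes (0.783%) on day 4, with 57 rises (0.531%) and 27 falls (0.252%). On day 8 there were 25 calls (0.233%), and 10 (0.0932%) in the rats kept until day 24, dosed for 14 days and then left 10 days untreated.

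**Figure D1:**
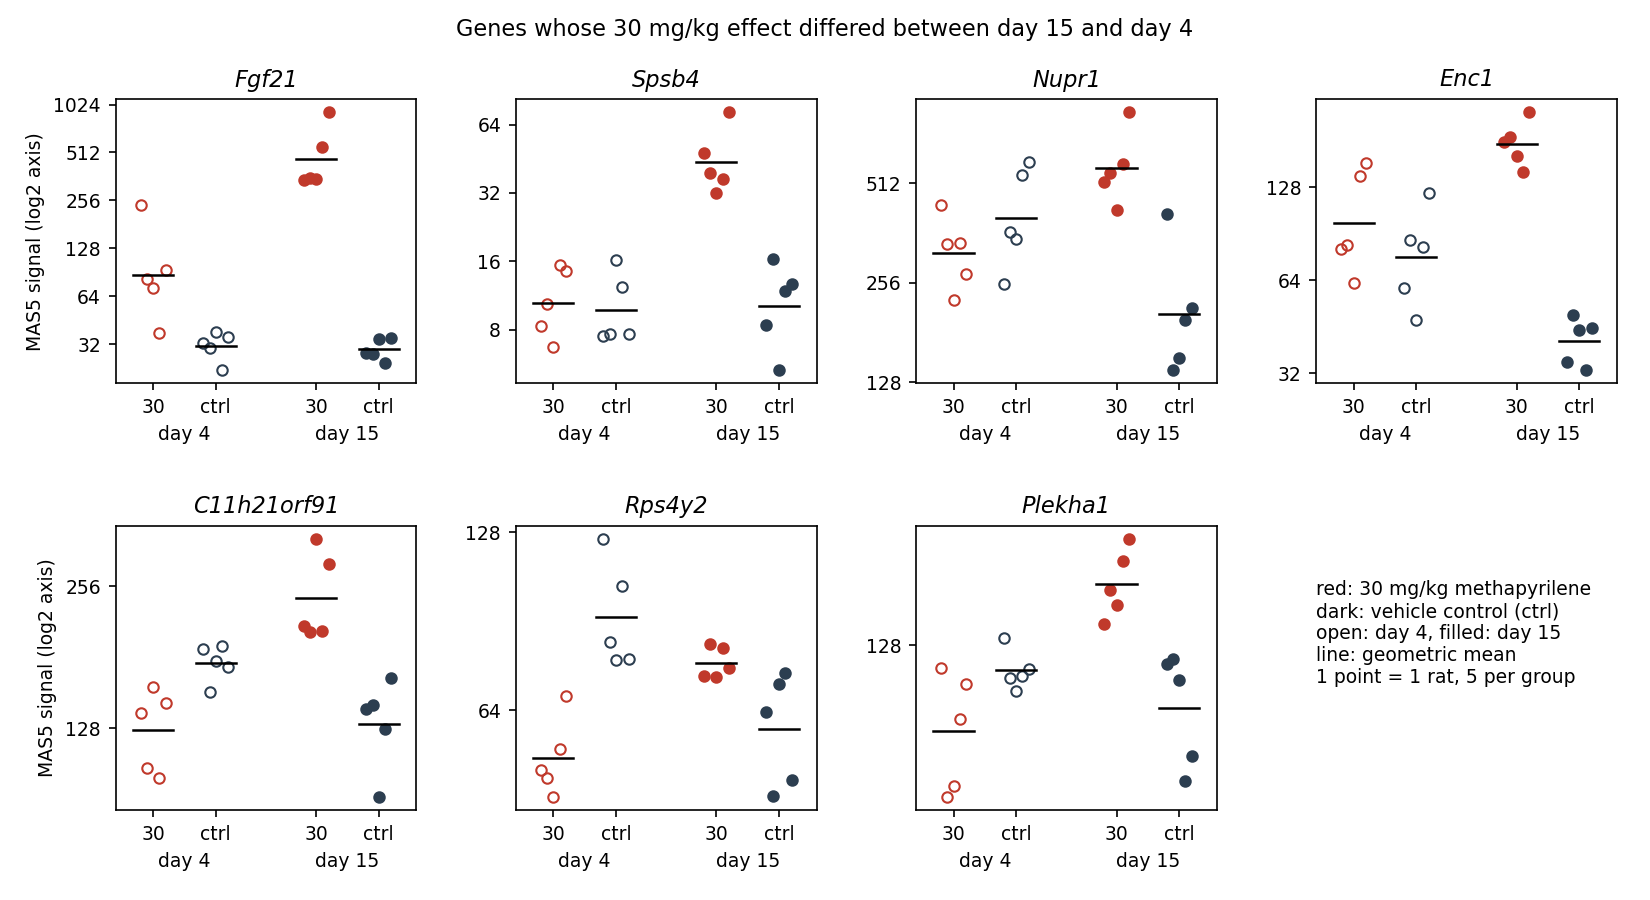
MAS5 signal, on a log2 axis, of the 7 genes whose 30 mg/kg effect differed between day 15 and day 4; each point is 1 rat, red for 30 mg/kg and dark for control, open on day 4 and filled on day 15, and lines are geometric means. For 6 of the genes all 5 dosed rats of day 15 lay above all 5 controls of that day, as in 3.69% of all genes. For Rps4y2 all 5 dosed rats of day 4 lay below the controls, as in 0.848% of all genes. The genes were called from these same arrays, so such gaps are partly built in by the choice.

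Fgf21, the hormone that hepatocytes secrete under fasting and amino acid stress, had the largest called difference. On day 4 its signal was 239.8, 81.5, 71.8, 37.4 and 93.4 in rats given 30 mg/kg, and 32.7, 30.3, 38.3, 21.9 and 35.2 in control rats. On day 15 it was 342, 355, 349, 551 and 921 at 30 mg/kg, and 28.2, 27.8, 34.3, 24.2 and 35.0 in control rats. On day 4 a single dosed rat (37.4) fell inside the control range, and on day 15 the lowest dosed rat lay far above every control. The 30 mg/kg effect was 1.48 ± 0.36 on day 4 (2.79-fold, adjusted p = 0.0363) and 3.97 ± 0.36 on day 15 (15.7-fold, adjusted p = 7.57e-11). The difference between the days was 2.49 ± 0.51 (5.62-fold, adjusted p = 0.0258). Fgf21 was the single gene called on both days and also between them. Control rats barely moved between the days (-0.072), so the difference lay in the dosed rats, whose signal rose by 2.42 between the days (adjusted p = 5.22e-05).

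Nupr1, a small chromatin protein induced by cell stress and a known ATF4 target, moved differently. On day 4 its signal was 439, 336, 227, 338 and 272 at 30 mg/kg and 255, 366, 347, 544 and 594 in control rats. The day 15 values were 517, 550, 426, 586 and 843 at 30 mg/kg and 415, 139, 152, 198 and 215 in control rats. The groups overlapped on day 4 and did not on day 15, as in 3.69% of all genes, where the control of 415 lay just under the lowest dosed rat. The effect was -0.35 ± 0.27 on day 4 (adjusted p = 0.622) and 1.46 ± 0.27 on day 15 (adjusted p = 0.000674), and the difference was 1.82 ± 0.39 (adjusted p = 0.0342). About equal parts came from each arm: between day 4 and day 15, dosed rats moved by 0.86 (adjusted p = 0.0678) and control rats by -0.96 (adjusted p = 0.0364).

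The promoters of Fgf21 and Nupr1 are shown because these were the 2 members of the ATF4 list called in the difference. Each is the RefSeq window of 300 bases, 250 before to 50 after the gene's start, read 5' to 3' on the gene's strand in build GRCr8, with matches in capitals. Fgf21 is at chr1:105221327-105221626 and Nupr1 at chr1:190645852-190646151, both on the minus strand.
Fgf21: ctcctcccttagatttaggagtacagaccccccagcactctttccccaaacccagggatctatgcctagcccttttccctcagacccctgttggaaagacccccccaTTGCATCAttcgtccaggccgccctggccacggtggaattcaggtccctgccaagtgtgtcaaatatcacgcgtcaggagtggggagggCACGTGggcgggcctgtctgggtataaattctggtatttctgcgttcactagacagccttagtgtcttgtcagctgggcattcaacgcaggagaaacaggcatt
Nupr1: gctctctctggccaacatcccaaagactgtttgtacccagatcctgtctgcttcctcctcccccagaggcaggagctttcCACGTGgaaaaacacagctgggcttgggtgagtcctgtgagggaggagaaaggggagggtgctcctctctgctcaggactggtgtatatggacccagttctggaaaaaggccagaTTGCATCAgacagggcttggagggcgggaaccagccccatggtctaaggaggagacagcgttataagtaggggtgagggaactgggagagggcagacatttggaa
Both windows held TTGCATCA, the reverse strand of TGATGNAA, the core of the C/EBP-ATF response element through which ATF4 acts. Its first base lay 143 bases before the start in Fgf21 and 55 bases before it in Nupr1. Both also held the E-box CACGTG, and neither held TGACNNNGC, the core of the antioxidant response element; the matches did not overlap. On either strand TGATGNAA was present in 3.98% of the 33469 promoters of this length and in 6 of 28 promoters of ATF4 list genes. CACGTG was present in 6.42% and in 5 of 28, and TGACNNNGC in 12.1% and in 8 of 28. A match describes the letters of this window and is not a measured binding site.

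Spsb4, a SOCS-box protein that helps mark other proteins for degradation, was called on day 15 and lay near 0 on day 4. On day 4 its signal was 8.33, 10.3, 6.69, 15.5 and 14.4 at 30 mg/kg and 7.52, 7.67, 16.2, 12.4 and 7.64 in control rats. By day 15 it was 48.2, 39.3, 31.9, 36.8 and 72.7 at 30 mg/kg and 8.43, 16.4, 5.29, 11.9 and 12.7 in control rats. The groups shared one range on day 4 and were well apart on day 15, although the 3 lower groups lay under the median of all signals (17.09), where MAS5 values are noisy. The effect was 0.11 on day 4 and 2.10 ± 0.29 on day 15 (adjusted p = 3.88e-06), and the difference was 2.0 ± 0.41 (adjusted p = 0.0258).

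Enc1, a kelch-repeat adaptor protein, had the smallest p of the difference. Its signal on day 4 was 81.0, 83.3, 62.6, 139 and 153 at 30 mg/kg and 60.4, 86.3, 47.7, 82.0 and 123 in control rats. On day 15 it was 179, 186, 161, 144 and 224 at 30 mg/kg and 34.8, 49.4, 44.1, 32.6 and 44.8 in control rats. The groups overlapped on day 4, and on day 15 the lowest dosed rat was far above the highest control. The effect was 0.37 ± 0.22 on day 4 and 2.12 ± 0.22 on day 15 (adjusted p = 4.14e-09), and the difference was 1.75 ± 0.31 (adjusted p = 0.0107). Dosed rats moved by 0.85 between the days and control rats by -0.90, both called. A second, dimmer Enc1 probe set gave 0.71 ± 0.52 for the difference, and with the mean of the gene's probe sets the call was lost (adjusted p = 0.16).

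Plekha1, an adaptor that binds phosphoinositides at the plasma membrane, had signals of 118, 75.4, 78.4, 99.1 and 112 at 30 mg/kg on day 4, against 131, 114, 109, 115 and 118 in controls. The day 15 values were 138, 155, 148, 172 and 186 at 30 mg/kg and 119.99, 122, 113, 79.8 and 87.0 in controls. The dosed rats were mostly low on day 4 and all high on day 15. The effect was -0.30 on day 4 and 0.63 ± 0.13 on day 15 (adjusted p = 0.00214), with a difference of 0.93 ± 0.18 (adjusted p = 0.0217).

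C11h21orf91 had signals of 138, 105, 156, 100.3 and 145 at 30 mg/kg on day 4, against 188, 153, 178, 192 and 172 in controls. By day 15 they were 211, 205, 323, 205 and 285 at 30 mg/kg and 140.4, 143, 91.4, 127 and 164 in controls. A single dosed rat of day 4 (156) reached the control range, and none did on day 15. The effect was -0.47 ± 0.20 on day 4 (adjusted p = 0.275) and 0.88 ± 0.20 on day 15 (adjusted p = 0.00595), with a difference of 1.36 ± 0.29 (adjusted p = 0.0342). A second probe set of the gene gave 0.96 ± 0.26.

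Rps4y2, a member of the ribosomal protein S4 family, differed in the other way: it was lower at 30 mg/kg on day 4. Its signal was 50.8, 49.1, 45.6, 54.9 and 67.7 at 30 mg/kg on day 4, against 125, 83.6, 77.9, 104 and 78.1 in controls, with no overlap, as in 0.848% of all genes. On day 15 it was 73.2, 82.9, 72.7, 81.5 and 75.5 at 30 mg/kg, and 63.6, 45.8, 70.8, 73.9 and 48.7 in controls. The effect was -0.79 ± 0.15 on day 4 (adjusted p = 0.00737) and 0.37 ± 0.15 on day 15 (adjusted p = 0.163), and the difference was 1.17 ± 0.22 (adjusted p = 0.0128). Near-identical S4 copies may share its probes, so its identity is uncertain.

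Over the 7 genes, dosed rats moved upward between the days in each, a change called in 6 (not Nupr1), and control rats moved downward in 6, called in 3 (Nupr1, Enc1 and Rps4y2). For Fgf21 and Spsb4 the control change was near 0 (-0.072 and 0.062). Of the 437 rises at an unadjusted p under 0.05, 352 paired a higher level in dosed rats with a lower one in controls, and of the 416 falls 341 paired the reverse. Between day 15 and day 4 alone, 371 genes (3.46%) were called in dosed rats and 376 (3.51%) in control rats, with 80 genes in both counts and 78 of these in the same direction. In dosed rats 48.5% of those calls were rises, and 62.4% of 181 calls were with every array set to a common median. Since the difference is built from these same arrays, the 2 changes are its parts and not independent support.

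**Figure D2:**
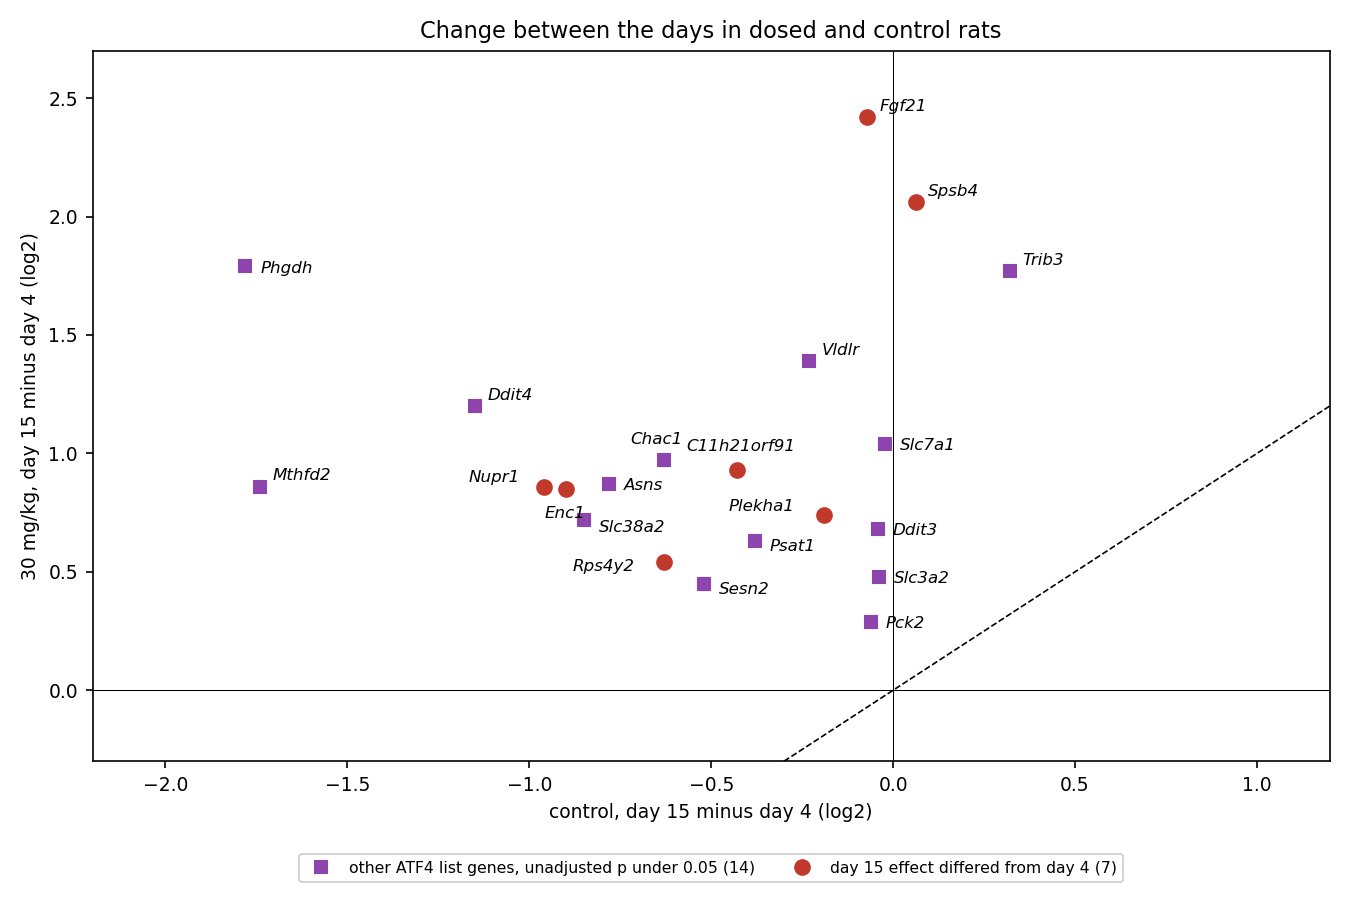
Change of log2 signal between day 4 and day 15 in control rats (x axis) and in rats given 30 mg/kg (y axis), for the 7 called genes (circles) and 14 other ATF4 list genes with an unadjusted p under 0.05 in the difference (squares); the dashed line marks equal change. Fgf21 and Spsb4 sit near 0 on the x axis, while Phgdh, Mthfd2, Ddit4, Nupr1 and Enc1 sit left of it, where control signals were lower on day 15.

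Of the lists examined, that of amino acid stress had the most rises. Of 32 ATF4-related genes 31 were measured, and 16 had an unadjusted p under 0.05 in the difference, all of them rises, against 4.07% of all genes; 2 of the 16 were called (Fgf21 and Nupr1) against 0.0653%. The median difference over the 31 was 0.52, and 25 were positive. Dosed rats were higher on day 15 than on day 4 in all 16, a change called in 5 (3.46% of all genes in either direction). Control rats were lower on day 15 in 15 of the 16, a change called in 2 (3.51%). Over the 31 the median change between the days was 0.45 in dosed rats and -0.069 in control rats. On day 15, 14 of the 31 were called as rises against 2.71% of all genes, 0 as falls, and the median effect was 0.69. On day 4 only Fgf21 and Cth, which makes cysteine, were called, against 0.531%, and the median effect was 0.11. On day 8 the median was 0.19. Per rat, the median shift of the list from the mean control of the same day was 0.28, 0.12, 0.16, -0.0025 and 0.22 at 30 mg/kg on day 4, and 0.43, 0.56, 0.69, 0.53 and 0.82 at 30 mg/kg on day 15. Control rats lay between -0.15 and 0.093 on day 4 and between -0.16 and 0.06 on day 15, so 4 of the 5 dosed rats were above all controls on day 4 and all 5 on day 15. ATF4 genes were known from earlier results of these data when the list was chosen.

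**Figure D3:**
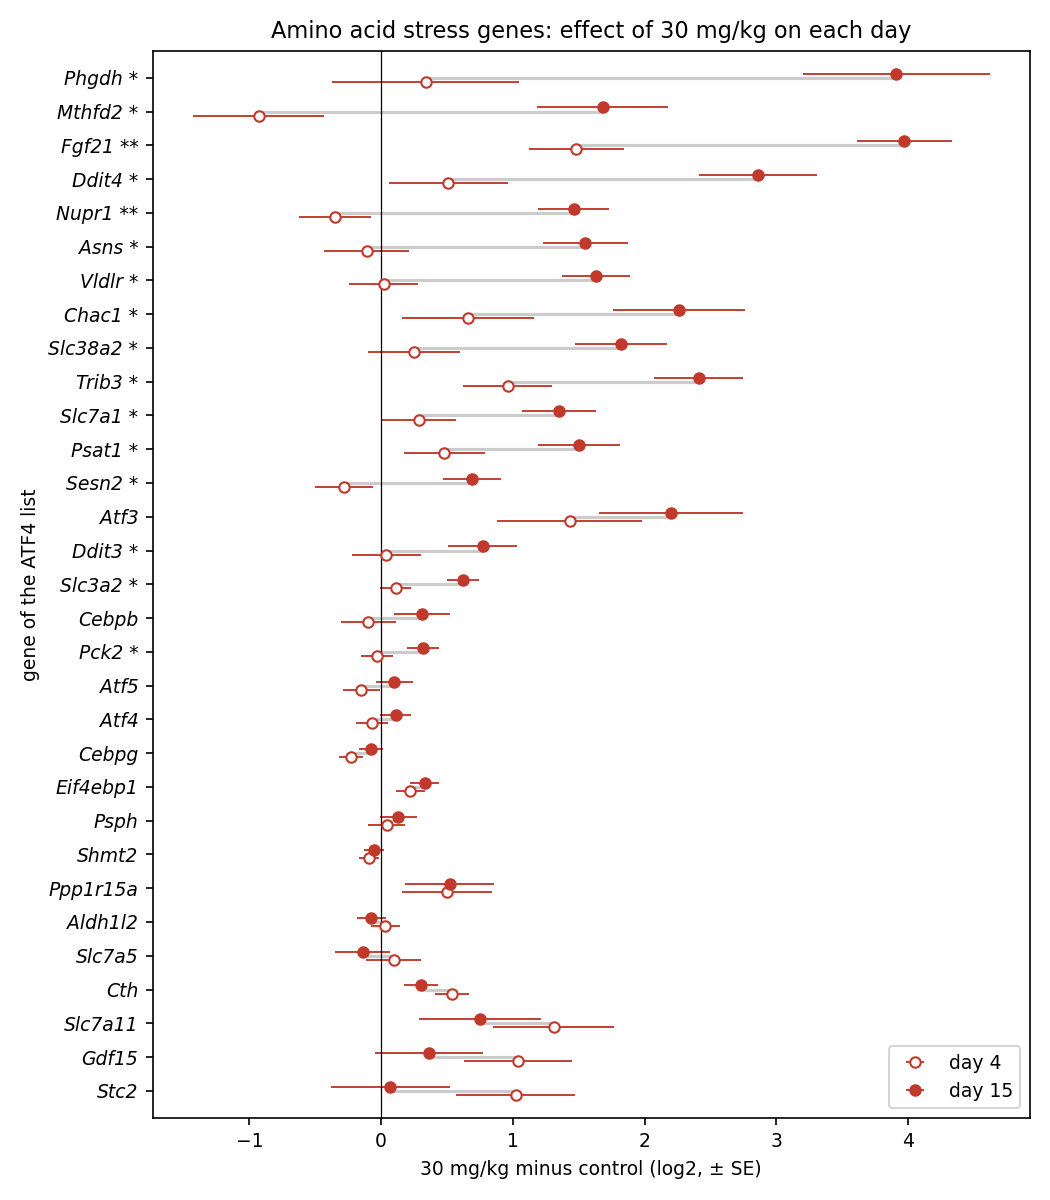
Effect of 30 mg/kg (log2 difference from control ± SE) on day 4 (open) and day 15 (filled) for the 31 measured genes of the ATF4 list, ordered by the difference between the days; 2 asterisks mark the genes called in the difference and 1 asterisk those with an unadjusted p under 0.05. Phgdh, Mthfd2, Fgf21 and Ddit4 stand at the top, and Stc2, Gdf15 and Slc7a11 at the bottom, higher on day 4 than on day 15.

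Among the enzymes that make amino acids, Phgdh, which opens serine synthesis, had signals of 37.8, 25.5, 14.1, 17.9 and 22.0 at 30 mg/kg on day 4, against 25.8, 5.87, 27.3, 41.7 and 9.53 in controls. The day 15 values were 72.3, 63.9, 69.0, 84.7 and 98.1 at 30 mg/kg and 11.04, 5.84, 1.52, 5.74 and 6.03 in controls. The day 15 groups were far apart and the day 4 groups overlapped fully. The effect on day 15 was 3.91 ± 0.71 (adjusted p = 0.000449), and the difference of 3.58 ± 1.0 did not pass (adjusted p = 0.213). All day 15 controls lay under the median of all signals (17.09), so the size of the Phgdh change is uncertain. Asns, which makes asparagine, had signals of 53.6, 41.1, 28.2, 28.6 and 47.0 at 30 mg/kg on day 4, against 46.6, 41.9, 34.1, 59.7 and 30.4 in controls. By day 15 they were 72.7, 60.8, 63.8, 80.6 and 75.1 at 30 mg/kg, and 29.4, 19.4, 25.4, 24.4 and 22.7 in controls. All 5 dosed rats stood above the controls on day 15 and the groups overlapped on day 4. The effect was -0.11 on day 4 and 1.55 ± 0.32 on day 15 (adjusted p = 0.00239), with a difference of 1.65 ± 0.46 (adjusted p = 0.203). Psat1, of serine synthesis, and Mthfd2, of mitochondrial folate metabolism, were called on day 15 (1.5 and 1.68) with differences of 1.01 and 2.61 that did not pass. Psph and Shmt2 of the same pathways had differences of 0.085 and 0.04. Mthfd2 was faint, with a mean log2 signal of 3.84, so the size of its change is uncertain.

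Several amino acid transporters and stress regulators were called on day 15 and not between the days. Slc38a2, the neutral amino acid transporter SNAT2, was called on day 15 (1.82 ± 0.35, adjusted p = 0.000829), as were the cationic transporter Slc7a1 (1.35) and the heavy chain Slc3a2 (0.62). Their differences were 1.57, 1.06 and 0.52, and the light chains Slc7a5 and Slc7a11 had differences of -0.24 and -0.56. Ddit4, an inhibitor of mTORC1, had signals of 225, 226, 161, 117 and 531 at 30 mg/kg on day 4, against 61.98, 82.6, 109, 381 and 410.1 in controls. On day 15 they were 360.3, 407, 644, 610.3 and 562 at 30 mg/kg, and 60.1, 48.3, 70.3, 89.6 and 88.99 in controls. Control replicates 4 and 5 of day 4 were as high as dosed rats, whereas no control of day 15 was. The Ddit4 effect on day 15 was 2.86 ± 0.45 (adjusted p = 7.01e-05), and its difference of 2.35 ± 0.64 did not pass (adjusted p = 0.193). Trib3, a pseudokinase that restrains ATF4, and Chac1, which breaks down glutathione, were called on day 15 (2.41 and 2.26), with differences of 1.45 and 1.61. Vldlr, a lipoprotein receptor, came nearest to a call among the rest (1.62 ± 0.37, adjusted p = 0.0669). Other Vldlr probe sets gave 2.05 ± 0.41, 1.76 ± 0.85 and 0.23 ± 0.35 for the difference. Atf4 itself had a difference of 0.18 ± 0.17, and Ddit3, the stress factor CHOP, had 0.73 ± 0.36 (adjusted p = 0.625).

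Control livers of day 4 were uneven in several of these genes. In control replicates 1, 2, 3, 4 and 5 of that day Slc38a2 measured 218, 661, 746, 1518 and 1882, Chac1 measured 66.4, 206, 377, 666 and 1163, and Igfbp1, a secreted protein that rises in fasting, measured 897, 3019, 3931, 5846 and 6335. Replicate 1 was the lowest and replicate 5 the highest in all 3 genes. The count of 16 ATF4 list genes was 12 without control day 4 replicate 4 and 17 without control day 4 replicate 1, the lowest and highest over 20 single arrays left out. The 2 list genes called in the difference became 0 without control day 4 replicate 3, and 4 without 30 mg/kg day 4 replicate 1. Feeding state at sacrifice is not given in the labels, and its part was not tested.

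A few detoxification genes were called as rises on both days. Of 40 NRF2-related genes 32 were measured; 4 were called as rises on day 4 (0.531% of all genes), 2 without control day 4 replicate 2, and 3 as rises and 1 as a fall on day 15 (2.71% and 1.88% of all genes). None was called in the difference, where the median was -0.0078. There 0 were higher and 3 lower at an unadjusted p under 0.05 (4.07% and 3.88% of all genes). At such a p 10 were higher on day 4 (8.11% of all genes) and 6 on day 15 (10.3%), with median effects of 0.13 and 0.11. Gsta3, a glutathione transferase, had signals of 355, 369, 650.1, 459 and 782 at 30 mg/kg on day 4, against 135, 202, 129, 182 and 89.1 in controls. The day 15 values were 555, 529, 628, 344 and 709 at 30 mg/kg and 158, 128, 77.4, 137 and 131 in controls. The groups did not overlap on either day. The effect was 1.82 ± 0.28 on day 4 (adjusted p = 0.000289) and 2.13 ± 0.28 on day 15 (adjusted p = 2.67e-06), and the difference was 0.31 ± 0.40, with a 95% interval of -0.48 to 1.11.

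Aldh1a1, which oxidises retinal and other aldehydes, likewise stood at 1.45 ± 0.28 on day 4 and 1.66 ± 0.28 on day 15, with a difference of 0.22 and a 95% interval of -0.59 to 1.03. Akr7a3, an aldo-keto reductase that clears aflatoxin aldehyde, stood at 0.91 and 1.13, with a difference of 0.22 and an interval of -0.36 to 0.81. These intervals are wide and do not show equal effects. Akr1b7, an aldose reductase family member, was called on day 4 only, at 4.06 ± 1.0 (adjusted p = 0.0374). Its signal on day 4 was 12.5, 316, 701, 30.9 and 199 at 30 mg/kg and 13.6, 7.87, 1.94, 9.15 and 6.85 in controls. By day 15 it was 189, 182, 216, 26.8 and 153 at 30 mg/kg and 156, 109, 22.1, 68.0 and 43.3 in controls. Between the days dosed rats moved by 0.17 and control rats by 3.27, and the difference of -3.11 ± 1.42 did not pass (adjusted p = 0.577). All day 4 controls lay under the median of all signals (17.09), so the size of the day 4 change is uncertain. The classical NRF2 targets Nqo1, Hmox1 and Txnrd1 had effects between -0.12 and 0.22 on both days. The list member called as a fall on day 15 was Osgin1, at -1.14, and its difference of -1.34 did not pass.

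**Figure D4:**
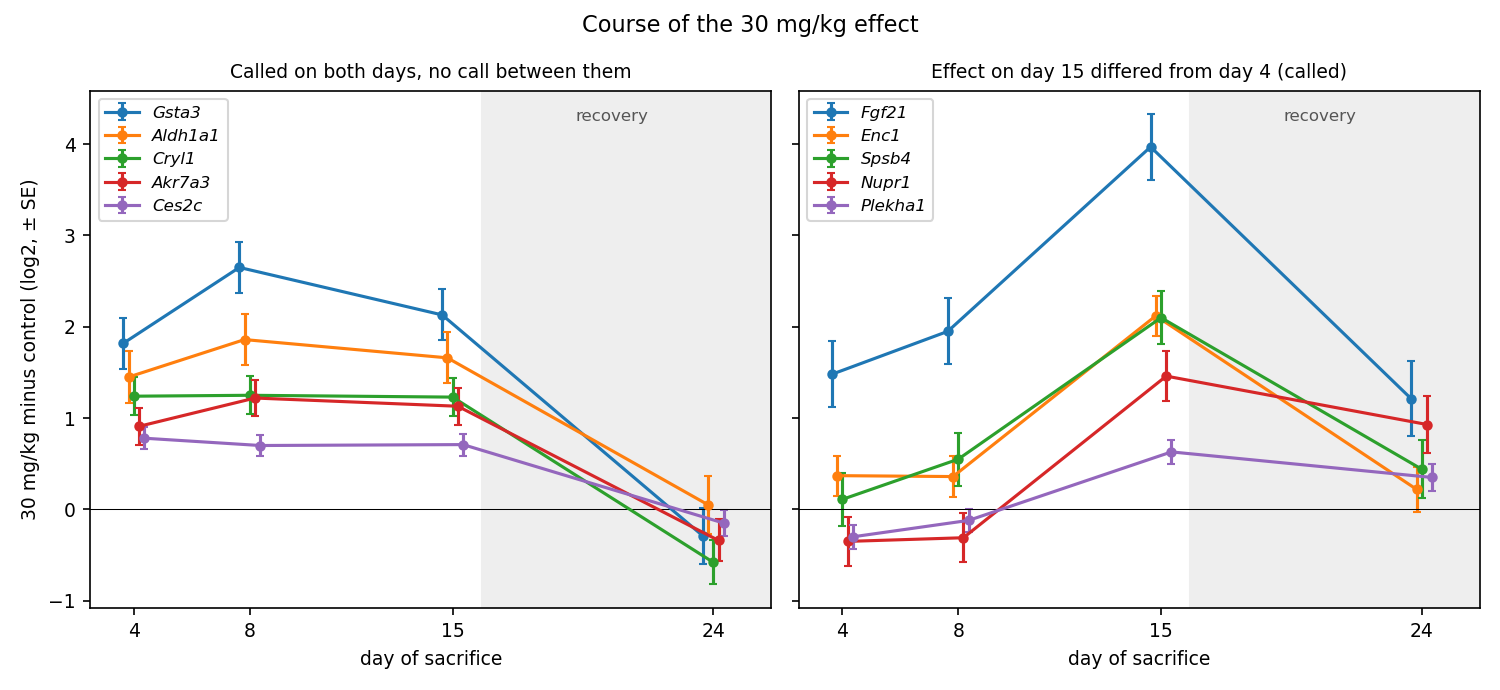
Effect of 30 mg/kg (log2 difference from control ± SE) on days 4, 8, 15 and 24 for 5 genes called on both day 4 and day 15 with no call between them (left) and 5 genes called in the difference (right); day 24 follows 10 days of recovery. The left genes lie well above 0 on days 4, 8 and 15 and between -0.58 and 0.05 on day 24, while the right genes peak on day 15.

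Cryl1, a crystallin-related dehydrogenase, and Ces2c, a carboxylesterase, are shown with these genes and were chosen after their values were seen. Their effects were 1.24 and 0.78 on day 4 and 1.23 and 0.71 on day 15, with differences of -0.0089 and -0.063. In all, 23 genes were called on both days, 21 as rises and 2 as falls (Efna5, an ephrin, and Epm2aip1), with 0 in opposite directions. That is 27.4% of the day 4 calls and 4.67% of the day 15 calls, whose arrays are all different. Without Fgf21, the 22 others had a median difference of 0.0039, ranging from -0.45 to 0.34, and 21 of their 95% intervals held 0. Their median effect size was 0.53 on day 4 and 0.54 on day 15. All 22 pointed the same way on day 8, where 6 were called, and 7 did so on day 24. The 22 were selected for calls on both days, so their likeness between the days is a description.

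**Figure D5:**
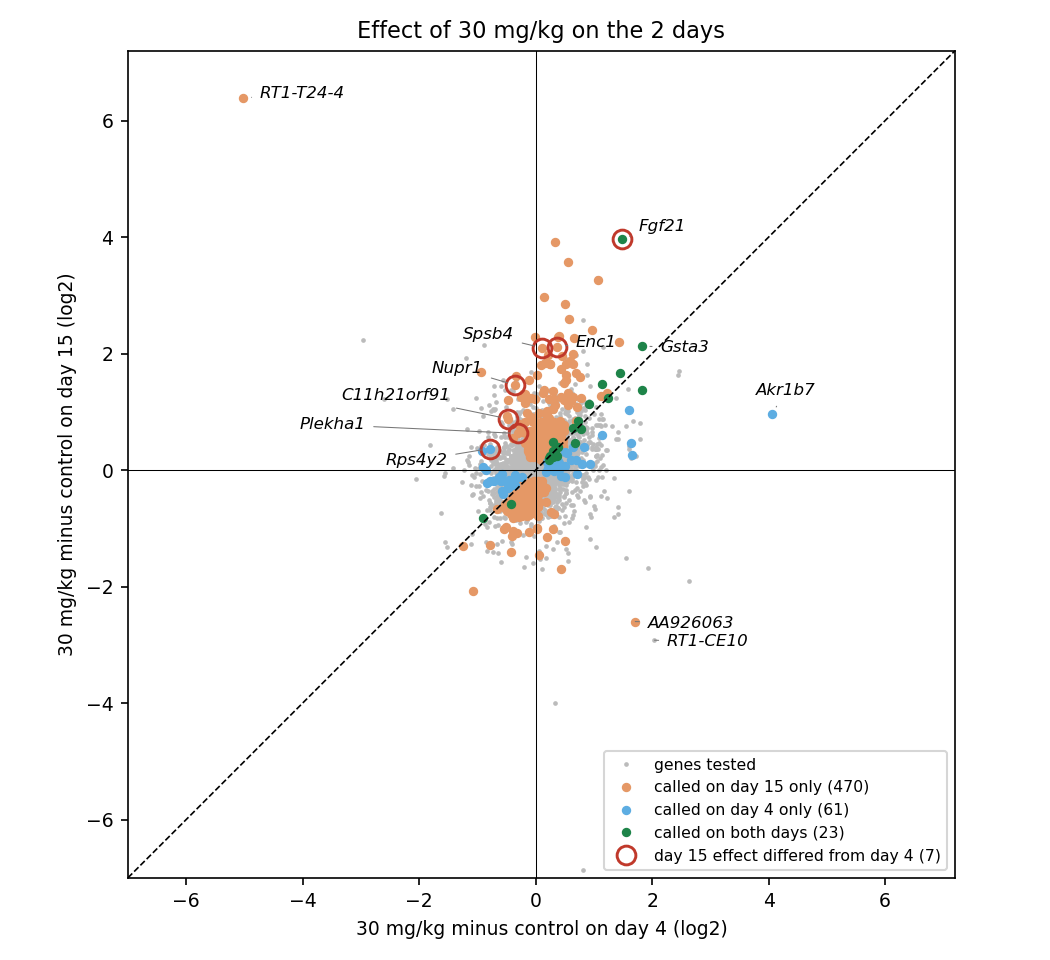
Effect of 30 mg/kg (log2 difference from control) on day 4 (x axis) and day 15 (y axis) for 10725 genes, with genes called on day 15 only, on day 4 only and on both days in colour and the 7 genes called in the difference circled; the dashed line marks equal effects. The circled genes lie above the line, Gsta3 lies near it, Akr1b7 lies below it, and RT1-T24-4 is far up and left.

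Seen over all calls, most day 4 genes kept their direction. Of the 84 genes called on day 4, 76 (90.5%) had the same sign on day 15, against 61.5% of all genes, with a median effect of 0.50 on day 4 and 0.19 in that direction on day 15. Of the 493 called on day 15, 409 (83%) had the same sign on day 4, with a median of 0.44 on day 15 and 0.16 on day 4. A gene called on one day had to be large on that day, so the smaller effect on the other day is what the choice brings. Of those 493, 6 were called in the difference and 216 had an unadjusted p under 0.05 there, against 0.0653% and 7.95% of all genes. The day 15 effect is part of the difference, so a high share is built in by the choice. Even so, calls on day 15 alone are mostly not shown to differ from day 4. Among rises called on day 15 and not in the difference were Noct, a circadian phosphatase (3.58 ± 0.64 on day 15, difference 3.02, adjusted p = 0.265) and Gem, a small GTPase (2.97 ± 0.54, difference 2.82, adjusted p = 0.193). Gem was faint, with a mean log2 signal of 3.64, so the size of its change is uncertain.

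Among genes of nitrogen and bile acid metabolism, Tat came nearest to a call. Tat, which starts tyrosine breakdown, had signals of 1253, 887, 1175, 962 and 1242 at 30 mg/kg on day 4, against 529.7, 1119, 1219.99, 1733 and 1643 in controls. On day 15 they were 1515, 1534, 1444, 1520.1 and 1474 at 30 mg/kg, and 513, 716, 469.8, 745 and 791 in controls. The dosed rats of day 15 were uniform and all above the controls, and on day 4 the groups overlapped. The difference was 1.32 ± 0.30 (adjusted p = 0.0534). Asl, of the urea cycle, differed by 0.64 ± 0.18 (adjusted p = 0.203) and Gpt2, an alanine transaminase, by 0.86 ± 0.32 (adjusted p = 0.464). A second Gpt2 probe set gave 0.072 ± 0.22 for the difference. Of the 45 measured genes of this list, 5 were higher and 1 lower at an unadjusted p under 0.05 (4.07% and 3.88% of all genes). None was called, and the median was -0.083. Cyp7a1, the first enzyme of bile acid synthesis, differed by 1.42 ± 0.39 (adjusted p = 0.2). Its effect was -0.49 on day 4 and 0.93 ± 0.28 on day 15 (adjusted p = 0.0382). Of the 26 bile acid genes 1 was higher in the difference at an unadjusted p under 0.05, near the 4.07% of all genes. Ppat, of purine synthesis, came closest among all rises (0.66 ± 0.15, adjusted p = 0.0527).

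Of 27 measured genes of folding and degradation in the endoplasmic reticulum, 7 were called as falls on day 15 (1.88% of all genes) and 0 on day 4 by limma. At an unadjusted p under 0.05, 14 were lower on day 15 (8.4% of all genes) and 14 on day 4 (5.72%), with a median effect of -0.20 on day 15 and -0.17 on day 4. Pdia4, a disulfide isomerase, had signals of 1773, 1705, 1842, 2025 and 1825 at 30 mg/kg on day 15 and 2124, 2155, 2757, 2839 and 2866 in controls, without overlap. Its effect was -0.46 ± 0.09 on day 15 and -0.23 on day 4, and the difference of -0.23 ± 0.13 did not pass. Hyou1, a chaperone of the same compartment, stood at -0.66 on both days. In the difference 1 gene of the list was higher and 4 lower at an unadjusted p under 0.05 (4.07% and 3.88% of all genes). None was called there, and the median was -0.083.

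Among growth and damage genes, the 35 mitosis genes measured had a median effect of 0.71 on day 4 and 0.93 on day 15, with 1 call over both days (Pbk, a mitotic kinase, 1.83 on day 15), and a median difference of 0.25. At an unadjusted p under 0.05, 19 were higher on day 15 (10.3% of all genes) and 8 on day 4 (8.11%). The 1 call on day 15 ran from 0 to 14 over the settings and from 0 (without control day 15 replicate 3) to 7 (without 30 mg/kg day 15 replicate 4) with 1 array left out. Control rats of day 15 lay lower than those of day 4 by a median of 0.61 on the log2 scale, and single rats varied widely, from -0.28 to 1.23 at 30 mg/kg on day 4 and from 0.11 to 1.46 on day 15 against the mean control of the day. Of 16 p53 targets, Tp53inp1, Gadd45a and Cdkn1a, the cell cycle inhibitor p21, were called on day 15 (1.22, 1.24 and 0.70), 3 of 16 against 2.71% of all genes. The death receptor Fas was called on day 4 (0.69), 1 of 16 against 0.531%, with 0 called in the difference. Mitochondrial chaperones and proteases were called as rises in 6 of 21 on day 15 (2.71% of all genes), among them Hspa9 (0.43) and Clpp (0.33), and in 2 on day 4 (0.531%), with a median difference of 0.014. The acyl-CoA thioesterases Acot1, Acot2, Acot3 and Acot4 were called on day 15 (3.27, 1.09, 0.84 and 0.78). Their differences of 2.20, 0.38, 0.15 and 0.089 did not pass. Acot1 was faint, with a mean log2 signal of 2.84, so the size of its change is uncertain.

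Genes of secreted liver proteins leaned downward in the difference, without a call. The median was -0.24 over 27 coagulation and plasma protein genes, -0.25 over 15 apolipoprotein genes, -0.23 over 21 acute phase genes and -0.24 over the 8 hepatocyte markers. In control rats the same medians were higher on day 15 by 0.23, 0.18, 0.20 and 0.24. With quantile normalization the medians of the difference shrank to -0.067, -0.058, -0.007 and 0.0076, and the cause was not tested. In whole liver, fewer cells of a type and less RNA per cell cannot be told apart.

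Markers of other cells were measured beside these results. Of the 18 macrophage markers measured, 16 were positive in the difference with a median of 0.29, and 0 were called. At an unadjusted p under 0.05, 2 were higher (Clec4f and C1qb), against 4.07% of all genes. Their summed signal was 6718 to 8612 at 30 mg/kg and 5844 to 6950 in controls on day 15 (exact permutation p = 0.0476, 0.326 adjusted over 48 measures). Biliary and progenitor markers summed to 4539 to 5629 at 30 mg/kg and 3325 to 4473 in controls on day 4 (exact permutation p = 0.00794, 0.153 adjusted), and to 4177 to 5782 and 3479 to 4802 on day 15 (p = 0.0397, 0.318 adjusted, exact permutation). Their median difference was 0.031 over 16 genes. The part of these cells in the gene results was not tested.

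Falls in the difference did not pass in the main fit. The closest were Zfp467, a zinc finger protein (-0.99 ± 0.22, adjusted p = 0.0527), Homez, a homeobox protein (-1.31 ± 0.31, adjusted p = 0.0841), and Ppa2, the mitochondrial pyrophosphatase (-0.47 ± 0.11, adjusted p = 0.0963). Zfp467 measured 118, 107, 117, 102 and 82.0 at 30 mg/kg on day 4, against 109.6, 86.1, 91.2, 78.8 and 72.3 in controls. The day 15 values were 91.6, 71.3, 51.7, 85.4 and 72.3 at 30 mg/kg, against 150.1, 112, 102, 152 and 97.3 in controls. All 5 dosed rats lay below the controls on day 15 and the groups overlapped on day 4.

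RT1-CE10 and RT1-T24-4 had large differences and a signal that was high in some rats and low in others. Of the 12 falls taken in order of raw p, 4 lie on chromosome 20: AA926063, RT1-CE10, Slc39a7 and Slc44a4. The share of all tested genes on that chromosome is not given here, so the count shows no excess. RT1-CE10, of the rat's major histocompatibility complex, measured 1505, 1542, 1682, 64.4 and 834 at 30 mg/kg on day 4, against 75.5, 56.5, 45.5, 945 and 967 in controls. By day 15 it measured 113, 104, 63.9, 160.2 and 986 at 30 mg/kg and 1415, 1051, 1235, 1586 and 1009 in controls. On day 4 dosed replicate 4 and control replicates 1, 2 and 3 were low, and on day 15 dosed replicates 1, 2, 3 and 4 were. RT1-T24-4 of the same complex measured 4.75, 0.68, 0.40, 755 and 478 at 30 mg/kg on day 4, against 775, 323, 576, 204 and 567 in controls. On day 15 it measured 879, 926, 659.5, 7.83 and 157 at 30 mg/kg, against 3.17, 0.53, 0.48, 0.37 and 534 in controls. Genes of this complex have near-identical copies, so their identity is uncertain, the cause of the pattern was not tested, and neither difference passed (11.41, adjusted p = 0.0978, for RT1-T24-4 and -4.96, adjusted p = 0.213, for RT1-CE10).

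Whether the higher dose built up differently was tested as the change between day 4 and day 15 at 80 mg/kg minus that at 30 mg/kg, in which controls cancel. Here 1930 genes (18%) were called, 1175 higher and 755 lower at 80 mg/kg, with 4 arrays on day 4 at that dose and 5 on day 15. Of the 7 genes only C11h21orf91 was called (-1.36, adjusted p = 0.000916): its difference of effects was 1.36 at 30 mg/kg and -3.9e-05 at 80 mg/kg. For the other 6 the test ran from -0.92 for Fgf21 (adjusted p = 0.232) to 0.77 for Nupr1 (adjusted p = 0.18). At 80 mg/kg the difference between the days, which shares its controls with that at 30 mg/kg, was 1.57 for Fgf21, 1.66 for Spsb4, 2.59 for Nupr1, 2.09 for Enc1, 0.83 for Rps4y2 and 0.78 for Plekha1, all called, against 24.4% of all genes. Of the 31 ATF4 list genes, 6 were called higher at 80 mg/kg (11% of all genes), among them Slc7a5 (1.46), Gdf15 (1.86), Ddit3 (1.06) and Atf4 (0.52), and 2 lower (7.04%), Slc38a2 (-1.61) and Cth (-0.62).

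These genes were chosen for an effect that was higher on day 15 than on day 4. A value below that of day 15 on another day is thus what the choice favours. After 10 days of recovery the effect of 30 mg/kg was below that of day 15 in all 7 genes and in all 16 ATF4 list genes with an unadjusted p under 0.05 in the difference. It was 1.21 for Fgf21 and 0.93 for Nupr1, from 4 rats at 30 mg/kg and 4 controls. The change from day 15 to day 24 was not tested.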

How the data were processed

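Liver RNA of male Han Wistar rats was labelled with a 3' in vitro transcription kit, per the labels' protocols, and the deposited values are linear MAS5 signal intensities, named in the submitters' processing notes, with each array's trimmed mean at 99.992. The files used here hold no detection calls. Values were taken to log2 without an offset. Of 31099 probe sets, the 57 control probe sets were left out; 20832 had 1 gene symbol, 436 several and 9831 none, and 20764 probe sets were matched to RefSeq GRCr8 genes for current symbols. Kept were probe sets that exceeded 17.09, the overall median, in 4 or more arrays, and per gene the one of highest mean, leaving 10725 genes. A group-means model over all 57 arrays was fitted with limma 3.58.1 (R 4.3.3, mean-variance trend, two-sided moderated test, Benjamini-Hochberg adjustment over all genes, called under 0.05). The scripts were tested on simulated data. Array measures were compared by exact two-sided permutation, with Python 3.11.15. Named genes were the called genes, then genes in order of raw p to 12 per direction, the members of each list with the smallest p or a call on a day, the 8 largest calls per direction and day, and the 4 largest between doses. The groups, gene lists and tests were chosen with earlier results of these data known. Each array is 1 rat, and the main fit did not use the replicate numbers to pair rats. Same-numbered arrays had deviations correlated between -0.064 and 0.111 (median 0.00128). In 7 of 20 such pairs, all between the days within a dose, the same number was the best match. Whether the numbers mark a shared batch was not tested. Alternatives covered normalization, filters, an offset, probe set summaries, array weights, the actin ratio, a replicate block and leaving out each array.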

Additional observations from a re-analysis of the deposited data

Results flagged for a closer look

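A single array stood apart from the other 4 of its group in 3 of 136 groups tested, and chance marks about 1 in 20 groups. The test was meant for 37 genes but did not cover Ddit3, Sesn2 and Pck2. AA926063 measured 4.38 in 30 mg/kg day 4 replicate 4, against 45.77 to 96.03 in the other 4 rats. RT1-CE10 measured 64.35 in the same rat, against 833.6 to 1682 in the others. Psat1 measured 144.89 in 30 mg/kg day 15 replicate 5, against 113 to 119 in the others.

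The effect of 30 mg/kg differed between day 15 and day 4, by the limma test of that difference, in Fgf21 (2.49), Spsb4 (2.0), Nupr1 (1.82), Enc1 (1.75), C11h21orf91 (1.36), Rps4y2 (1.17) and Plekha1 (0.93). The change between the days at 80 mg/kg minus that at 30 mg/kg was -1.36 for C11h21orf91, the single one of the 7 called in that test.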

How the results depend on the processing

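The 7 calls in the difference between days became 11 with an offset before log2, with array weights, with the actin ratio as a covariate and with the replicate block, and 5 with quantile normalization. Leaving out 1 array gave 2 calls (without 30 mg/kg day 4 replicate 2) to 14 (without control day 4 replicate 1). All 7 main calls were rises, but 1 fall was called with no filter, the stricter filter, the offset or array weights. Falls numbered 2 with only the groups of the contrast or with the replicate block, and up to 2 with 1 array left out. The main fit did not use the replicate numbers, and the 11 calls with the replicate block held all 7. Calls on day 15 (493) became 300 with a common median and 1002 with array weights, and 277 to 616 with 1 array left out (30 mg/kg day 15 replicates 1 and 4). Calls on day 4 (84) became 39 with a common median, 198 with all probe sets and 52 with the actin ratio, and 19 (without control day 4 replicate 2) to 87. Calls between the days in dosed rats (371) became 181 with a common median and 779 with array weights, and 184 to 486 with 1 array left out. In control rats (376) they became 217 with a common median, 599 with all probe sets and 169 with the actin ratio, and 216 to 439. The 1930 calls between doses ran from 1356 to 2168 with 1 array left out. The causes were not tested.

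Of the 7 genes, Rps4y2 kept its call in all 12 settings and 20 left-out arrays, and Enc1 lost it with the mean of probe sets alone (adjusted p = 0.16). Fitting only the 4 groups of the contrast, Spsb4, Nupr1 and Plekha1 lost their calls, and with quantile normalization or no variance trend Nupr1 and C11h21orf91 did. With 1 array left out, the call was lost in 8 of 20 fits for Fgf21, 6 for Spsb4, 11 for Nupr1, 9 for C11h21orf91 and 4 for Plekha1. Of 148 results for named genes, 62 lost a call in at least 1 setting or left-out array, 14 gained one, and 0 changed sign. Most were named for a small p or a large effect in these same arrays, so a change of sign was unlikely from the start.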

Other observations

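None of the following gene groups had a call in the difference by limma. Of 31 respiratory chain genes, 7 were lower and 1 higher in the difference between day 15 and day 4 at an unadjusted p under 0.05, against 3.88% and 4.07% of all genes, with a median of -0.073; their median effect was 0.05 on day 15 and 0.15 on day 4. The 7 became 3 with quantile normalization and 3 without control day 15 replicate 3. Of 17 cytosolic heat shock genes, 4 were higher (Stip1, Hspb8, Chordc1 and Hspb1), with a median of 0.13. The 4 became 2 with the actin ratio as a covariate and 1 without 30 mg/kg day 15 replicate 5. Of 19 aminoacyl-tRNA synthetases, which charge tRNAs with amino acids, 3 were higher (Yars1 at 0.46, Sars1 at 0.37 and Nars1 at 0.32), with a median of 0.12. At such a p 1 immediate early gene was higher and 2 were lower. These genes had a median of -0.30 over 18 genes, with Egr1 at -1.51 and Nr4a1 at 1.17, and clock genes had 0.1 over 17.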
